A study of Homo sapiens with 24 samples.

Results

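The C/EBP family genes were described across 4 groups of IMR90 cells, a line of human lung fibroblasts, by RNA-seq. The 6 genes were picked by symbol (*CEBPA*, *CEBPB*, *CEBPD*, *CEBPG*, *CEBPZ* and *DDIT3*) from the 25702 Entrez gene identifiers of the count files, and 5 of them were among the 13356 genes tested; *CEBPA* did not pass the filter on low counts. All 24 samples carried ER:HRAS(G12V), an oncogenic HRAS fused to an oestrogen receptor domain that 4-hydroxytamoxifen (4OHT) switches on. Each group held 6 biological replicates. Growing cells had the empty MSCV vector and no 4OHT. shHMGA1 cells had a single miR30-type hairpin in MSCV against *HMGA1*, a chromatin protein gene, and no 4OHT. RIS cells (RAS-induced senescence) had the empty vector and 6 days of 4OHT, and RIS+shHMGA1 cells had the hairpin and 6 days of 4OHT. Both vectors were brought in by retrovirus, so that all groups, the growing cells included, were infected cells with the RAS fusion.

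C/EBP proteins are transcription factors of the basic leucine zipper class. They bind DNA as pairs, with themselves or with a relative, so that the balance between activating and inhibitory members sets their output. C/EBPα, C/EBPβ and C/EBPδ activate genes in fat, liver, myeloid and inflamed cells, and C/EBPβ is known for driving inflammatory genes in fibroblasts with oncogenic RAS. C/EBPγ and the *DDIT3* product CHOP form pairs but lack a full activating or DNA-binding function of their own. *CEBPZ* shares the name because it was found as a CCAAT-binding factor. It has no leucine zipper of this class and its relatives in other species work in the nucleolus on the large ribosomal subunit.

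Start-site regions of 3 members are shown because *CEBPB* and *DDIT3* were among the members with higher counts after 4OHT while *CEBPG* was not. The 250 bases before each start were taken from RefSeq (GRCh38.p14) and were matched exactly to GRCh37, the build of the counts. The windows used were 8, for 5 of the 6 members, with none for *CEBPD*. Capitals mark matches on either strand to the CCAAT box (CCAAT), the TATA box (TATAAA), the AP-1 motif (TGANTCA), the C/EBP motif (TTGCNNAA), the C/EBP-ATF motif (TGATGCAA), the CRE motif (TGACGTCA) and the STAT motif (TTCNNNGAA).
CEBPB, chr20:50190580-50190829, plus strand: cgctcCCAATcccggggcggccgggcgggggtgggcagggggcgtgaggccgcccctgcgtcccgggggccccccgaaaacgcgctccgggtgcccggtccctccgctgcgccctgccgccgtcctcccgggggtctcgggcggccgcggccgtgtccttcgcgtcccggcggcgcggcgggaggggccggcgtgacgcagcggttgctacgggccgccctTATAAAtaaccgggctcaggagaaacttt
DDIT3, chr12:57520515-57520764, minus strand: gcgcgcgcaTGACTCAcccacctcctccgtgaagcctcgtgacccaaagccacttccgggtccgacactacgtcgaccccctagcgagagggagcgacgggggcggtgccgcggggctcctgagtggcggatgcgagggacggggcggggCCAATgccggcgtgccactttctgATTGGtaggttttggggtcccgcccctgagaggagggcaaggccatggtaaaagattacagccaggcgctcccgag
CEBPG, chr19:33373459-33373708, plus strand: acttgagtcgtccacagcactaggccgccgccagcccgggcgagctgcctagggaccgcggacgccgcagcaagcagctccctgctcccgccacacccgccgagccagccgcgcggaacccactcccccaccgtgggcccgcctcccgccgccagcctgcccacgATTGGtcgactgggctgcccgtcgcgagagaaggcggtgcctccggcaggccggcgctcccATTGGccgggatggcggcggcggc
In GRCh37 these windows lie at chromosome 20, 48807117 to 48807366, chromosome 12, 57914298 to 57914547, and chromosome 19, 33864365 to 33864614, and each ends next to the start of the GENCODE canonical transcript. The *DDIT3* window also holds 34 exonic bases of *MBD6* on the other strand, and the *CEBPG* window 24 exonic bases of a longer *CEBPG* transcript.

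The TATAAA of *CEBPB* lies 29 to 24 bases before the start, and *CEBPA* has one at 30 to 25 bases; 10.7% of 35114 RefSeq windows of this length hold that motif. *DDIT3* has CCAAT on one strand at 100 to 96 bases and on the other at 76 to 72 bases, and *CEBPG* has it at 85 to 81 and 24 to 20 bases. CCAAT was in 4 of the 8 windows of the family, against 32% of all windows. The 2 *DDIT3* windows begin 3 bases apart and hold the same matches, so that these are 5 separate positions in 3 members. The AP-1 motif of *DDIT3* lies at 241 to 235 bases (6.57% of all windows hold one). A second *CEBPG* start, 404 bases downstream of the canonical one, has the C/EBP-ATF motif at 42 to 35 bases, which 0.772% of all windows hold. TTGCNNAA (9.05% of all windows), TGACGTCA (1.65%) and TTCNNNGAA (6.57%) were in 0 of the 8 windows. GGGCGG, the GC box, left in lower case above, had 18 matches in 6 of the 8 windows, at 15 separate positions in 4 members, and is in 42.6% of all. The single *CEBPZ* window held none of these 8 motifs. A match describes letters in this window and not a bound site.

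Total counts lay between 8698070 and 23103424 per sample, with a median of 10604084. *HMGA1*, the targeted gene, lay between 639 and 861 CPM (counts scaled to library sizes normalised by TMM) in the 12 samples without the hairpin and between 54.4 and 262 CPM in the 12 with it. Fibroblast genes were all expressed (12 of 12 tested), whereas the defining genes of the cells in which the family is best known were mostly at or near 0: *PTPRC* up to 0.688 CPM, *SPI1* up to 0.0913 CPM, *ALB* up to 0.201 CPM and *ADIPOQ* up to 0.0774 CPM. Of the myeloid list *CD68*, which fibroblasts also make, reached 105 CPM, and *CSF1R* and *FCER1G* reached 2.66 CPM each. Of the hepatocyte list *SERPINA1*, an acute-phase protease inhibitor, reached 12.7 CPM and was called higher in RIS+shHMGA1 than in shHMGA1 cells (log2 fold change 3.86, adjusted p = 0.00033). The summed fibroblast genes moved with the groups, from 18703 to 26649 CPM in shHMGA1 cells to 7130 to 9601 CPM in RIS+shHMGA1 cells; their part in the results below was not tested. The first principal component of log2 CPM held 73.9% of the variance, and on it growing replicate 4 (77.3) lay apart from the other growing samples (−84.3 to −57.2) and RIS replicate 2 (−77.1) apart from the other RIS samples (16.8 to 62.1). Growing replicate 4 thus lay on the side of the 4OHT samples, and RIS replicate 2 on that of the untreated ones. Each of them thus looked like the other treatment on this component. Growing replicate 4 lay above all RIS samples there and among the RIS+shHMGA1 samples (52.5 to 84.1), with *HMGA1* at 667 CPM as in samples without the hairpin. Whether the labels of these 2 samples were exchanged was not tested and cannot be told from the labels. Both were kept in their labelled groups, so that every comparison with growing or RIS cells holds only as far as these labels do. The fold changes, levels per kb and correlations that rest on those groups are given also without these 2 samples, an alternative added after seeing the data. Since these samples were picked for lying apart from their groups, leaving them out widens the difference between RIS and growing cells and narrows their spread. The p-values without them are therefore no independent evidence.

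**Figure D1:**
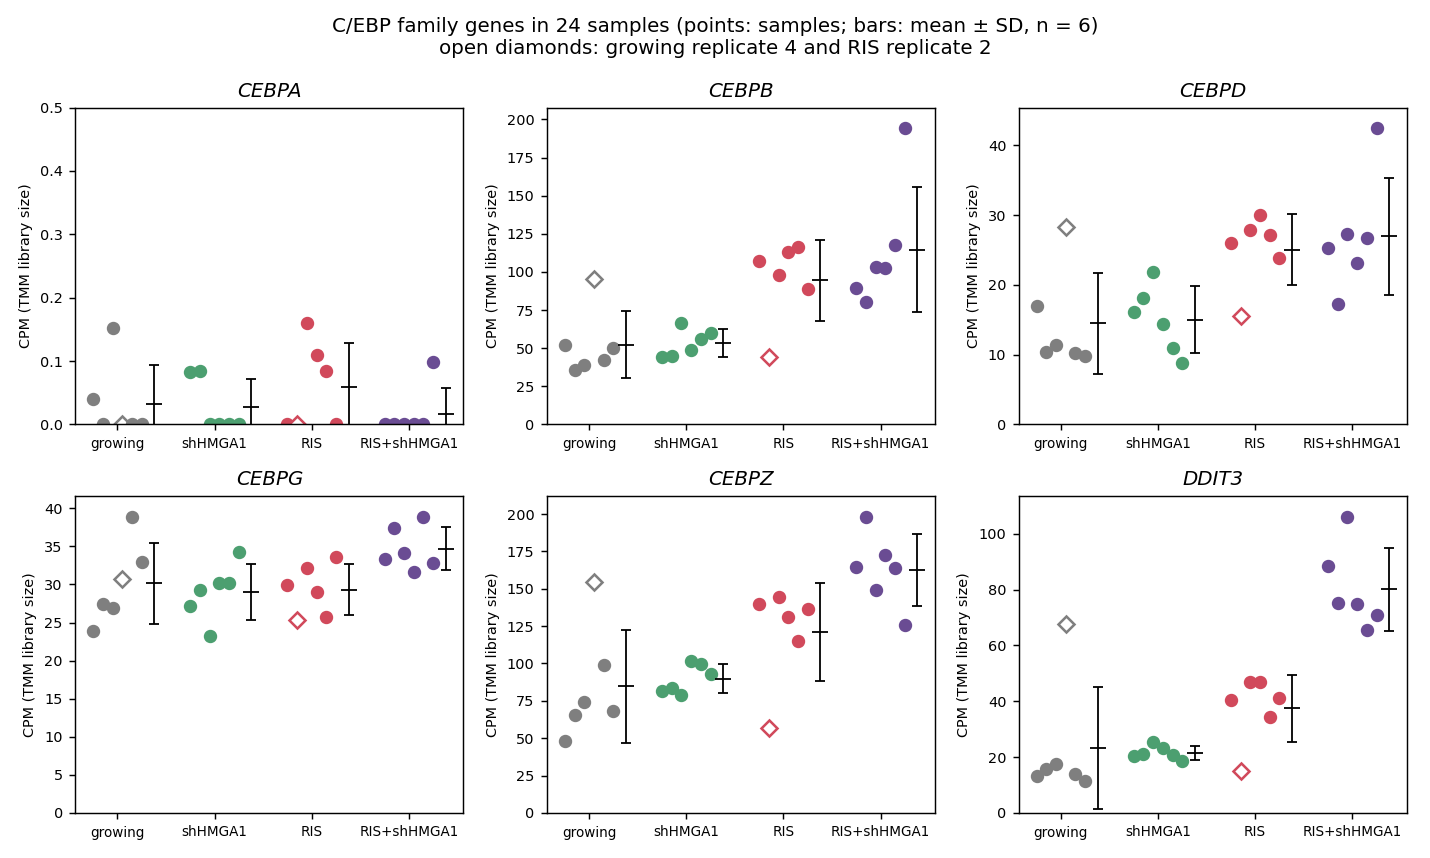
Level of each C/EBP family gene in CPM (y axes from 0, one scale per gene) in the 24 samples, by group on the x axis; points are samples, the bar beside them is the mean ± SD of 6, and open diamonds are growing replicate 4 and RIS replicate 2. *DDIT3* lay between 65.6 and 106 CPM in all 6 RIS+shHMGA1 samples and at 47.0 CPM or lower in every RIS and shHMGA1 sample, and the diamonds lie away from their groups for *CEBPB*, *CEBPD*, *CEBPZ* and *DDIT3*.

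The response of the family to 4OHT in cells with the hairpin was described by RIS+shHMGA1 against shHMGA1 cells. Its fold changes compare these groups alone, but the spread per gene came from all 24 samples, growing and RIS included. No group had 4OHT without the RAS fusion, so RAS and 4OHT itself cannot be told apart in any comparison. *CEBPB*, *CEBPD*, *CEBPZ* and *DDIT3* were higher in RIS+shHMGA1 cells, by 2.14-fold, 1.80-fold, 1.81-fold and 3.72-fold, and *CEBPG* differed by 1.19-fold, which did not pass. A gene was called at an adjusted p under 0.01 and a log2 fold change beyond 0.58 in edgeR's quasi-likelihood test, the thresholds of the study's methods. By that rule 4 of the 5 tested members were called, all higher, where 39.1% of all tested genes were called and 19.6% were called higher. *HMGA1* itself was at a log2 fold change of 0.73 (adjusted p = 0.033), not called. Without growing replicate 4 and RIS replicate 2 the same 4 members were called, where 22.5% of all genes were called higher. Their fold changes hardly moved, but the SE of *DDIT3* fell from 0.35 to 0.12. The adjusted p of *CEBPD* fell from 0.0085 to 0.00057 and that of *CEBPZ* from 0.0029 to 4.3e-06. In bulk RNA, more transcript per cell and more cells with the transcript cannot be told apart.

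*CEBPB* (GRCh37 chromosome 20, 48807367 to 48809205, plus strand, 1 exon) encodes C/EBPβ, the inflammatory activator. It lay at 35.5, 46.2 and 95.3 CPM (lowest, median and highest of 6) in growing cells and at 44.2, 52.6 and 66.5 CPM in shHMGA1 cells. RIS cells had 44.5, 102 and 116 CPM, and RIS+shHMGA1 cells 80.0, 103 and 194 CPM. All 6 RIS+shHMGA1 samples were above all 6 shHMGA1 samples, and the highest of them, replicate 6, stood well above the next one at 118 CPM. The log2 fold change between these groups was 1.099 (SE 0.25, adjusted p = 0.0010). Between RIS and growing cells it was 0.86 (SE 0.25, adjusted p = 0.028), short of the threshold, and the groups overlapped through growing replicate 4 at 95.3 CPM and RIS replicate 2 at 44.5 CPM. Without these 2 samples growing cells reached at most 52.0 CPM and RIS cells had at least 88.5 CPM, with a log2 fold change of 1.26 (SE 0.18, adjusted p = 2.6e-06). In this setting the RIS samples all lay above the growing samples for 15.9% of all tested genes. *CEBPB-AS1* covers 231 exonic bases of *CEBPB* on the other strand, 12.6% of its transcript. The library kit kept strand, but the strand setting of the counting is not given in the sources used here.

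*CEBPD* (GRCh37 chromosome 8, 48649475 to 48650726, minus strand, 1 exon) encodes C/EBPδ, an acute-phase activator that often rises with C/EBPβ. It had the lowest counts of the tested members, 113 to 428 in a sample. Growing cells had 9.83, 10.9 and 28.3 CPM and shHMGA1 cells 8.80, 15.3 and 21.9 CPM. RIS cells had 15.5, 26.6 and 30.1 CPM, and RIS+shHMGA1 cells 17.3, 26.0 and 42.5 CPM. RIS+shHMGA1 and shHMGA1 samples overlapped, since RIS+shHMGA1 replicate 2 at 17.3 CPM lay below 2 of the shHMGA1 samples. The log2 fold change was 0.85 (SE 0.26, adjusted p = 0.0085). This call was the least firm of the family: without replicate 6, whose RIS+shHMGA1 sample was the highest and whose shHMGA1 sample was the lowest, the log2 fold change was 0.56 with an adjusted p of 0.074. It was also lost when replicate 1, 3 or 5 was left out (adjusted p = 0.027, 0.013 and 0.034) and with no filter on low counts (0.011). Between RIS and growing cells it was 0.80 (SE 0.26, adjusted p = 0.045), and without growing replicate 4 and RIS replicate 2 it was 1.18 (SE 0.22, adjusted p = 6.0e-05).

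*CEBPA* (GRCh37 chromosome 19, 33790840 to 33793440, minus strand, 1 exon) encodes C/EBPα, which arrests growth and directs differentiation in fat, liver and myeloid cells. It had 10 counts in all 24 samples together, with 16 samples at 0 and at most 2 counts in a sample (0.160 CPM). In the samples at 0, the 3 counts that a count of 0 allows correspond to 0.185 to 0.439 CPM, a limit that covers counting error only. At this depth no difference was detectable: 2-sided exact permutation tests of log2 CPM between groups of 6 gave an adjusted p of 1 in all 5 pairs of groups tested.

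*CEBPG* (GRCh37 chromosome 19, 33864591 to 33873592, plus strand) encodes C/EBPγ, the short partner that other members and ATF4 pair with. It was the steadiest tested member. Growing cells had 23.8, 29.1 and 38.9 CPM, shHMGA1 cells 23.3, 29.7 and 34.3 CPM, RIS cells 25.3, 29.5 and 33.6 CPM, and RIS+shHMGA1 cells 31.6, 33.8 and 38.8 CPM. All 4 groups overlapped. The log2 fold change of RIS+shHMGA1 against shHMGA1 was 0.26 (95% interval 0.02 to 0.49, adjusted p = 0.054), and that of RIS against growing was −0.04 (−0.27 to 0.20, adjusted p = 0.82). Both intervals lie within 0.58 on either side of 0.

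*DDIT3* (GRCh37 chromosome 12, 57910371 to 57915520, minus strand) encodes CHOP, the inhibitory partner that ATF4 induces under protein-folding and nutrient stress. It lay at 11.5, 14.9 and 67.8 CPM in growing cells and at 18.5, 20.8 and 25.4 CPM in shHMGA1 cells. RIS cells had 15.1, 40.8 and 47.0 CPM, and RIS+shHMGA1 cells 65.6, 74.9 and 106 CPM. Its RIS+shHMGA1 samples were apart from both the shHMGA1 and the RIS samples. The log2 fold change of RIS+shHMGA1 against shHMGA1 was 1.90 (SE 0.35, adjusted p = 0.00028), the largest of the family. *CEBPB*, *CEBPZ* and *DDIT3* were the 3 members whose RIS+shHMGA1 samples all lay above the shHMGA1 samples, as 20.9% of all tested genes did. *MARS1* lies over 219 of the 903 bases of the canonical *DDIT3* transcript on the other strand, and its log2 fold change here was −0.14 (adjusted p = 0.14). A further protein-coding gene is annotated on the same strand as *DDIT3* and shares 105 bases (11.6%). No strand setting could tell the reads of those bases apart.

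*CEBPZ* (GRCh37 chromosome 2, 37428755 to 37458739, minus strand, 16 exons) had 47.9, 71.3 and 154 CPM in growing cells and 78.9, 88.4 and 102 CPM in shHMGA1 cells. RIS cells had 57.0, 134 and 145 CPM and RIS+shHMGA1 cells 126, 164 and 198 CPM. The lowest RIS+shHMGA1 sample was above the highest shHMGA1 sample. The log2 fold change was 0.85 (SE 0.22, adjusted p = 0.0029). Its adjusted p rose above 0.01 when replicate 1, 3 or 5 was left out (0.011, 0.015 and 0.010), with log2 fold changes of 0.81, 0.84 and 0.88. *CEBPZOS*, a gene on the other strand that shares 351 exonic bases (10.5% of the *CEBPZ* transcript), moved alike: its mean was 78.6 ± 12.6 CPM in shHMGA1 and 183 ± 39.6 CPM in RIS+shHMGA1 cells (SD, n = 6), with a log2 fold change of 1.22 (adjusted p = 0.0015). Reads of the shared bases cannot be assigned to one of the pair without the strand setting. A noncoding gene on the other strand also shares 339 exonic bases of *CEBPZ* (10.1%).

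**Figure D2:**
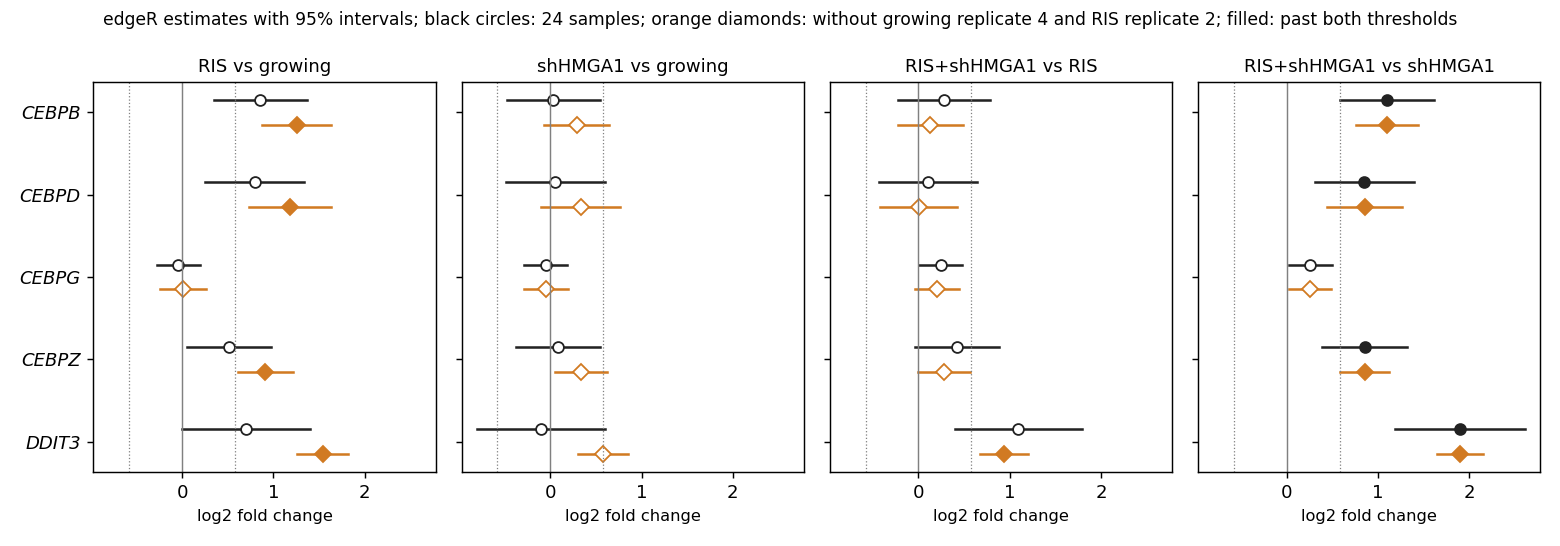
edgeR log2 fold changes (x axis) of the 5 tested members (y axis) in 4 comparisons, with 95% intervals; black circles use 24 samples, orange diamonds leave out growing replicate 4 and RIS replicate 2, filled symbols passed both thresholds, and dotted lines mark −0.58 and 0.58. In RIS against growing, no circle is filled and the diamonds of 4 members are; in RIS+shHMGA1 against shHMGA1, both symbols sit at the same place for each member.

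RIS against growing cells asks the same question without the hairpin. None of the 5 tested members passed, at log2 fold changes of 0.86 (*CEBPB*), 0.80 (*CEBPD*), −0.04 (*CEBPG*), 0.51 (*CEBPZ*, adjusted p = 0.11) and 0.70 (*DDIT3*, adjusted p = 0.15). edgeR called 0% of all genes in this comparison (0 of 13356), although 4407 genes had an unadjusted p under 0.05, among them 4 members; DESeq2 called 826 genes (5.72%) and 1 member, *CEBPB*. In growing replicate 4 *CEBPB*, *CEBPD*, *CEBPZ* and *DDIT3* were each the highest of the growing samples, and in RIS replicate 2 each was the lowest of the RIS samples. Without these 2 samples the same 4 members were called, all higher, where 19.2% of all genes were called higher (2579 of 13416). As these 2 samples were the extremes of the same members, leaving them out had to widen the gap and narrow the spread. *DDIT3* then lay between 11.5 and 17.6 CPM in 5 growing samples and between 34.4 and 47.0 CPM in 5 RIS samples, a log2 fold change of 1.54 (SE 0.14, adjusted p = 1.1e-09). *CEBPZ* lay between 47.9 and 98.9 CPM and between 115 and 145 CPM, a log2 fold change of 0.91 (SE 0.14, adjusted p = 7.9e-06). Groups that lay apart in this way, with RIS higher, were found for 15.9% of all tested genes. *CEBPG* stayed near 0, at 0.01 (95% interval −0.24 to 0.26).

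RIS+shHMGA1 against growing cells shares the growing samples with that comparison and the RIS+shHMGA1 samples with the first. The log2 fold changes were 1.13 for *CEBPB*, 0.91 for *CEBPD*, 0.20 for *CEBPG*, 0.94 for *CEBPZ* and 1.80 for *DDIT3*. The same 4 members as against shHMGA1 were called, where 45.9% of all genes were called and 22% were called higher. *CEBPD* (adjusted p = 0.0048) lost its call when replicate 1, 3, 5 or 6 was left out or when the samples of the contrast were fitted alone, and *CEBPZ* (adjusted p = 0.0013) when replicate 1 was, at an adjusted p of 0.011. Without growing replicate 4 and RIS replicate 2, the log2 fold changes were 1.39 for *CEBPB*, 1.19 for *CEBPD*, 0.21 for *CEBPG*, 1.20 for *CEBPZ* and 2.47 for *DDIT3* (SE 0.14, adjusted p = 1.3e-13), the same 4 members were called, and 28.3% of all genes were called higher.

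Whether the hairpin changed the family in untreated cells was answered by shHMGA1 against growing cells, in which 0.27% of all genes were called. No member was, and none had an unadjusted p under 0.05 or was called by DESeq2. Their log2 fold changes lay between −0.10 (*DDIT3*, 95% interval −0.80 to 0.60) and 0.08 (*CEBPZ*, −0.38 to 0.54), so that for *DDIT3* a change beyond 0.58 lies within the interval. The same holds for *CEBPD*, at 0.06 (−0.49 to 0.60), and for *CEBPZ* and *CEBPB* the intervals end below 0.58. Without growing replicate 4 and RIS replicate 2, *CEBPB* was at 0.29 (−0.07 to 0.65) and *CEBPD* at 0.33 (−0.10 to 0.77). *CEBPZ* was at 0.34 (0.06 to 0.63, adjusted p = 0.073), so that each of these intervals reached past 0.58. *CEBPG* stayed at −0.04. Under the same setting the value of *DDIT3* was 0.58 (SE 0.13, adjusted p = 0.0079). All 6 shHMGA1 samples (18.5 CPM or more) were then above the 5 growing samples (17.6 CPM or less), as for 3.24% of all tested genes, while 2.59% of all genes were called, and the fold change of 1.49 did not reach the threshold on size.

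In 4OHT-treated cells the hairpin comparison, RIS+shHMGA1 against RIS, called 2.55% of all genes and no member. *DDIT3* came closest. Its mean was 37.5 ± 11.9 CPM in RIS and 80.1 ± 14.8 CPM in RIS+shHMGA1 cells (SD, n = 6), all 6 RIS+shHMGA1 samples were above all 6 RIS samples, as for 8% of all tested genes, and the log2 fold change was 1.096 (SE 0.34, adjusted p = 0.022). DESeq2 called *DDIT3* (adjusted p = 0.0083) where it called 12.2% of all genes, 7.99% higher. edgeR without growing replicate 4 and RIS replicate 2 called it too, at 0.93 (SE 0.13, adjusted p = 9.4e-05), where 12.5% of all genes were called, 10% higher. For *CEBPB*, *CEBPD* and *CEBPZ* the log2 fold changes were 0.28 (95% interval −0.23 to 0.78), 0.11 (−0.43 to 0.65) and 0.43 (−0.03 to 0.89), intervals that reach past 0.58. Without the 2 samples they were 0.13, 0.004 and 0.28, with intervals that end below 0.58. *CEBPG* was at 0.24 (0.01 to 0.48, adjusted p = 0.090). *DDIT3* and *CEBPG* were the 2 members with an unadjusted p under 0.05.

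Whether the hairpin effect differed with and without 4OHT was tested by the interaction, in which edgeR called 0% of all genes (1371 had an unadjusted p under 0.05, and DESeq2 called 4) and no member by either tool. *DDIT3* had the largest value of the family, 1.20 (SE 0.48, unadjusted p = 0.020, adjusted p = 0.43), and was the member with an unadjusted p under 0.05. Without growing replicate 4 and RIS replicate 2 it was 0.36 (SE 0.18, adjusted p = 0.99). A hairpin effect on *DDIT3* that differs between treated and untreated cells was therefore not shown.

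Levels were compared between members per kilobase of the GENCODE canonical transcript, which runs from 903 bases for *DDIT3* to 3730 for *CEBPG*. In growing cells the order of the medians was *CEBPB* (25.1 CPM per kb), *CEBPZ* (21.3), *DDIT3* (16.5), *CEBPD* (8.69) and *CEBPG* (7.79), and each neighbour overlapped the next over the 6 samples. The order was the same without growing replicate 4, with medians of 23.09, 20.4, 15.4, 8.29 and 7.35 CPM per kb, and neighbours overlapped likewise. In RIS+shHMGA1 cells it was *DDIT3* (82.9 CPM per kb), *CEBPB* (56.1), *CEBPZ* (49.1), *CEBPD* (20.7) and *CEBPG* (9.05). There *CEBPZ*, at 37.6 CPM per kb or more, lay apart from *CEBPD* (33.9 or less), and *CEBPD* (13.8 or more) apart from *CEBPG* (10.4 or less), while *DDIT3*, *CEBPB* and *CEBPZ* were not all apart from their neighbours. *DDIT3* thus had the third median in growing cells and the first in RIS+shHMGA1 cells.

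Set against *CEBPG* in the same sample, the level per kb of *DDIT3* was 1.44, 2.34 and 9.11 times that of *CEBPG* (lowest, median and highest) in growing cells, 2.22, 3.03 and 4.50 times in shHMGA1, 2.46, 5.54 and 6.68 times in RIS, and 6.98, 9.33 and 12.8 times in RIS+shHMGA1 cells. The ratio of *CEBPB* to *CEBPG* had medians of 2.996, 3.43, 6.71 and 6.14 in the same order. That of *CEBPD* to *CEBPG* had medians of 1.19, 1.60, 2.58 and 2.22. Without the 2 samples that stood apart, the medians in growing and RIS cells were 2.29 and 5.56 for *DDIT3*, 2.92 and 7.25 for *CEBPB* and 1.13 and 2.59 for *CEBPD*, and the highest *DDIT3* ratio in growing cells was 2.70 in place of 9.11. The *DDIT3* ratio is thus the one whose RIS+shHMGA1 samples are apart from the RIS samples.

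Over the 24 samples, log2 CPM of *DDIT3* and *CEBPZ* had a Pearson correlation of 0.90 and *CEBPB* and *CEBPD* one of 0.87. About the group means, which takes the differences between groups out, these were 0.78 and 0.73. *CEBPG* went least with the activators, at 0.31 with *CEBPB* and 0.03 with *CEBPD*. These are descriptions, and the samples share the 4 groups. Without growing replicate 4 and RIS replicate 2 the correlations over 22 samples were 0.89 for *DDIT3* with *CEBPZ* and 0.87 for *CEBPB* with *CEBPD*. About the group means they were then 0.093 and 0.50, so the value of 0.78 for *DDIT3* and *CEBPZ* rested on these 2 samples. Other pairs changed sign about the group means. *CEBPB* went from 0.47 to −0.50 with *CEBPZ* and from 0.63 to −0.33 with *DDIT3*, and *CEBPD* from 0.25 to −0.70 with *CEBPZ*. Others kept their sign, as *CEBPG* with *CEBPZ* did (0.58 and 0.73).

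**Figure D3:**
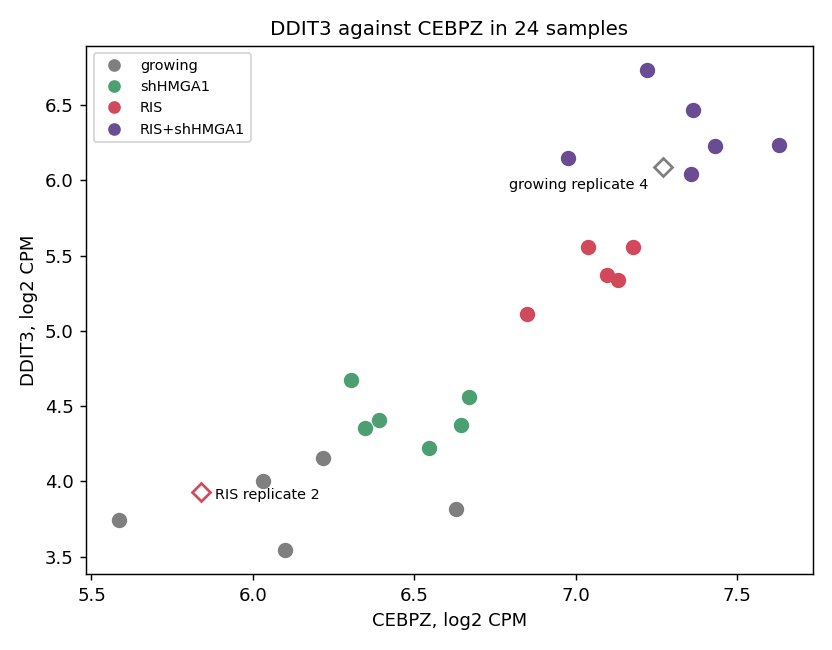
*DDIT3* (y axis) against *CEBPZ* (x axis), both in log2 CPM, in the 24 samples coloured by group; open diamonds are growing replicate 4 and RIS replicate 2. Growing replicate 4 lies among the RIS+shHMGA1 samples and RIS replicate 2 among the growing samples.

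The genes with the pattern most like each member, by Pearson correlation of log2 CPM over the 24 samples, were as follows. For *CEBPB* they were *SMOX* (0.97), *OAF* (0.96) and *SQSTM1* (0.96). For *CEBPD* they were *NINJ1* (0.94), *CYP1A1* (0.93) and *IP6K2* (0.93), and for *CEBPG* they were *NAA50* (0.89), *NT5C3A* (0.86) and *SAMD3* (0.85). *CEBPZ* was closest to *DNTTIP2* (0.99), *ETNK1* (0.99) and *GNL3* (0.98), of which *GNL3* encodes a nucleolar protein, and *DDIT3* to *ST20*, *H2AC8* and *SAT2* (0.98 each). The lower values for *CEBPG* go with its small range over the samples. Without the 2 samples the correlations of these 15 genes lay between 0.86 and 0.99.

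Inflammatory genes known to have C/EBP sites or to depend on C/EBPβ or C/EBPδ were the list that moved most in RIS+shHMGA1 against shHMGA1 cells. Whether they depended on C/EBP proteins in these cells was not tested. Of 26 such genes 23 were tested, and 18 were higher and 2 lower, where 19.6% of all tested genes were higher and 39.1% were called, with a median log2 fold change of 2.70 against −0.02 over all tested genes. The largest belonged to chemokines that draw neutrophils and lymphocytes: *CXCL5* (6.41, adjusted p = 0.0014), *CCL20* (6.05) and *CXCL3* (5.99). *CCL20* went from 0.581, 1.63 and 2.18 CPM in shHMGA1 cells to 94.0, 107 and 123 CPM in RIS+shHMGA1 cells. *C3*, the central complement component, fell by 1.55 on the log2 scale, from a mean of 234 ± 84.2 to 80.1 ± 17.4 CPM (SD, n = 6), and *PTX3*, a soluble pattern receptor, fell by 1.21. The list was thus not uniform in direction.

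In RIS against growing cells none of these 23 genes was called by edgeR, 9 had an unadjusted p under 0.05 and DESeq2 called 2. *CCL20* had a median of 1.57 CPM in growing cells. Its highest growing value (123 CPM), that of growing replicate 4, was as high as the highest RIS+shHMGA1 value. Without growing replicate 4 and RIS replicate 2, 20 were called higher and 2 lower, with a median of 3.08, where 19.2% of all genes were called higher. In RIS+shHMGA1 against RIS cells 2 were higher and 0 lower, where 1.77% of all genes were higher, and 6 were higher without the 2 samples, where 10% of all genes were.

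Genes of fat cell differentiation downstream of the family were mostly too low: 7 of 16 were tested, of which 4 were higher and 1 lower in RIS+shHMGA1 than in shHMGA1 cells (median 1.20), beside 39.1% of all genes called and 19.6% higher. *CD36*, a fatty acid receptor, rose by 3.85 on the log2 scale, from a mean of 0.830 ± 0.312 to 11.96 ± 1.32 CPM, and *G0S2*, an inhibitor of lipolysis, by 2.68. *PLIN2*, which coats lipid droplets in many cell types, rose by 1.20. *PPARG*, the receptor that C/EBPβ and C/EBPδ switch on in fat cells, fell by 0.76 (adjusted p = 0.0099), from 5.27 ± 2.00 to 3.11 ± 0.430 CPM.

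Of 28 regulators and partners of the family 27 were tested, 4 higher and 3 lower (median −0.22), a smaller share than the 39.1% of all tested genes that were called. *RPS6KA1*, the kinase RSK1 downstream of RAS and ERK, rose by 1.87 (adjusted p = 0.00029), from a mean of 2.63 ± 0.509 to 9.68 ± 2.28 CPM. *TRIB1* and *TRIB3*, pseudokinases of which TRIB1 leads C/EBPα to degradation and TRIB3 binds CHOP and ATF4, rose by 1.30 and 1.19. *CDK2*, a cell cycle kinase, fell by 2.29, from 86.1 ± 4.62 to 17.6 ± 1.94 CPM. *SMARCA2*, a chromatin remodelling ATPase, fell by 1.18, and *RB1*, which pairs with C/EBPβ in differentiation, fell by 1.099.

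Of 20 stress-response genes around *DDIT3* 19 were tested, 5 higher and 2 lower (median 0.35), a share close to the 39.1% of all tested genes that were called. *DDIT4*, an inhibitor of mTOR signalling, rose by 1.83 (adjusted p = 0.00039), from a mean of 15.8 ± 3.72 to 56.2 ± 3.72 CPM. *DNAJB9*, a chaperone partner of the endoplasmic reticulum, rose by 1.05, and *TRIB3*, a CHOP target, is on this list too. *NUPR1*, a stress-induced chromatin protein, fell by 1.55, and *EIF2AK3*, the kinase PERK upstream of ATF4, fell by 0.68. *ATF4* itself was at 0.15 (adjusted p = 0.21) and *HSPA5*, the main chaperone of the endoplasmic reticulum, at 0.22 (adjusted p = 0.19); these last 2 genes were picked after their values were seen. *DDIT3* therefore had a larger log2 fold change, 1.90, than any named gene of its list.

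The list around *CEBPZ* held 22 genes, mostly of large-subunit assembly, the process of the *CEBPZ* relatives. It also held other nucleolar genes and *METTL3* and *METTL14*, whose products CEBPZ is known to recruit. All 22 were tested, 6 higher and 0 lower (median 0.36). *WDR12* rose by 1.22 (adjusted p = 0.0012), *BRIX1* by 0.95 and *GNL3* by 0.87, the last from a mean of 92.0 ± 13.6 to 168 ± 11.9 CPM. All 3 encode nucleolar proteins of ribosome assembly or growth. The share higher, 6 of 22, stands beside 19.6% of all tested genes. In RIS+shHMGA1 against RIS cells no gene of this list was called by edgeR or DESeq2.

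**Figure D4:**
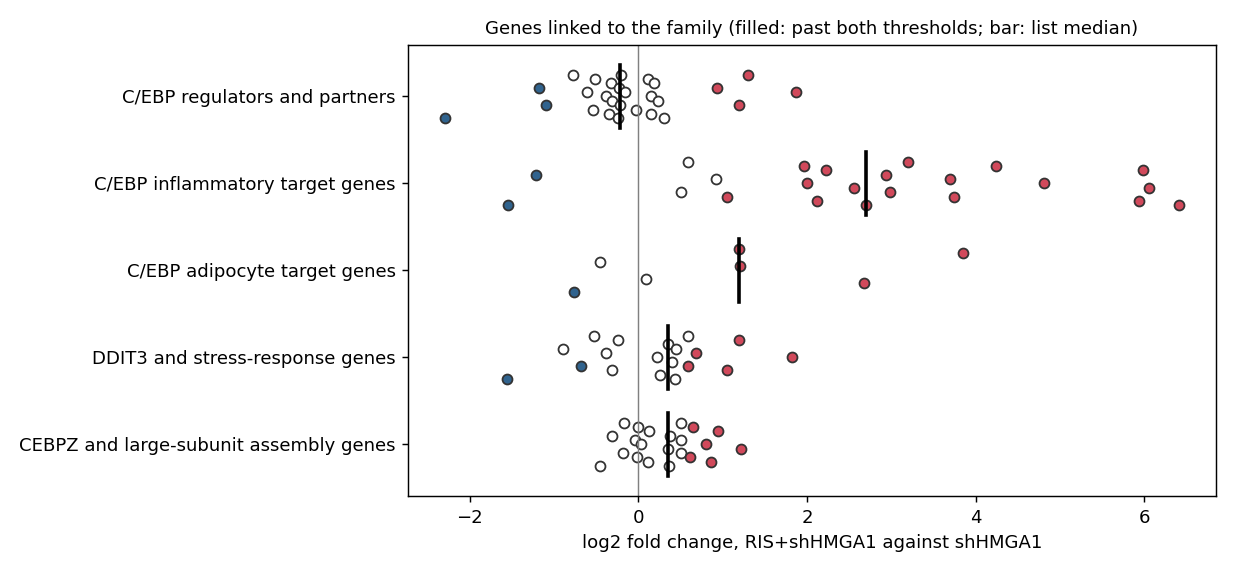
log2 fold change of RIS+shHMGA1 against shHMGA1 cells (x axis) for the tested genes of 5 lists linked to the family (y axis); each point is a gene, filled red (higher) or blue (lower) where it passed both thresholds, and the black bar is the list median. The inflammatory list has its median at 2.70, and the medians of the other lists lie between −0.22 and 1.20.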

How the data were processed

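RNA-seq counts of 24 samples were used, grouped by the sample labels. The authors aligned the reads to hg19 with STAR 2.5.0b after trimming with cutadapt 1.10.0, as their processing notes list, and deposited raw counts per Entrez gene from Rsubread; its annotation and strand setting are not given in the sources used here. Symbols came from a RefSeq table (23696 of 25702 identifiers).

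Counts were tested with edgeR 4.0.16 (R 4.3.3; filterByExpr, TMM, quasi-likelihood fit of 4 group means over 24 samples), with Benjamini-Hochberg adjustment over 13356 genes, an FDR of 0.01 and an absolute log2 fold change of 0.58. CPM used TMM library sizes, and log2 CPM a prior count of 2. SEs came from the F statistic. The scripts were tested on simulated data. No samples of a group agreed within sampling noise (chi-square per gene at least 2.89).

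The members, gene lists and comparisons were chosen with earlier results of these data known. Named genes were the members, *HMGA1*, per list up to 3 called genes in each direction in RIS+shHMGA1 against shHMGA1, and the 3 genes most correlated with each tested member. Alternatives were DESeq2 1.42.0, RLE normalisation, no filter, at least 1 CPM in 6 samples, a replicate block, contrast samples only, an FDR of 0.05 and leaving out each replicate number. Of the members, depth limited *CEBPA*. p-values measure the spread between cultures labelled as biological replicates.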

Additional observations from a re-analysis of the deposited data

Results flagged for a closer look

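In 5 of 24 checks of a gene within a group, a sample's gap to its nearest neighbour took up more of the group's range of log2 CPM than Dixon's 95% critical value for 6 samples; chance gives about 1 in 20. *CEBPA*, which had no log2 CPM, could not be flagged. RIS replicate 2 was lowest for *CEBPB* (gap 0.715 of the range), *CEBPD* (0.647), *CEBPZ* (0.754) and *DDIT3* (0.726), and growing replicate 4 was highest for *DDIT3* (0.760). The same 2 samples lay on the other side of the first principal component from their groups. *HMGA1* was at 713 CPM in RIS replicate 2 and 667 CPM in growing replicate 4, within the range of the samples without the hairpin, so this gene does not tell the 2 groups apart. These checks are not independent of each other, and the cause, an exchange of labels included, was not tested.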

How the results depend on the processing

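Over the log2 fold changes of the members and all alternatives, 366 of 415 values kept direction and side of the threshold, 14 were no longer past it, 17 were newly past it and 18 changed sign. In RIS against growing cells the genes called were 826 with DESeq2, 1537 at an FDR of 0.05, 5331 without growing replicate 4 and RIS replicate 2, and 0 to 2083 when a replicate number was left out; members called were 1, 2, 4 and 0 to 4. For RIS+shHMGA1 against growing, leaving out a number gave 3058 to 7243 genes and leaving out the 2 samples 7627, and against shHMGA1 3037 to 5502 and 5959 genes, with 2 to 4 members called throughout. For shHMGA1 against growing the genes called were 23 without a filter, 5 on the samples of the contrast only, 97 with DESeq2, 85 at an FDR of 0.05, 348 without growing replicate 4 and RIS replicate 2 and 5 to 25 without a number. For RIS+shHMGA1 against RIS they were 189 without a filter, 1567 with DESeq2, 2898 at an FDR of 0.05, 1677 without the 2 samples and 14 (without replicate 5) to 2205 (without replicate 4), with 1 member each for the last 4 settings other than without replicate 5 (0). For the interaction they were 4 with DESeq2, 2 at an FDR of 0.05, 1 without the 2 samples and 0 to 1 without a number. The cause of these differences was not tested.

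With the replicate number as a block, RIS against growing called 1 gene and RIS+shHMGA1 against RIS 1637 genes and 1 member, *DDIT3* (log2 fold change 1.15, adjusted p = 0.0070); the block changed no other call of a member. The numbers were not taken to pair the samples. Of 36 correlations about the group means between samples of the same number, 24 exceeded 0.1 and the lowest was −0.59. The mean was 0.18 for the same number and −0.050 for different numbers. Of 24 samples, 8 correlated best with their own number. Samples of the same number were thus somewhat more alike on average, and whether the numbers mark shared cultures was not tested.

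Values that changed sign did not pass. Leaving out a replicate number gave −0.099 to 0.082 for *CEBPG* in RIS against growing. In shHMGA1 against growing it gave −0.11 to 0.29 for *CEBPB*, −0.14 to 0.34 for *CEBPD*, −0.081 to 0.024 for *CEBPG* and −0.22 to 0.53 for *DDIT3*, which was at 0.11 with the block. In RIS+shHMGA1 against RIS *CEBPD* ranged from −0.082 to 0.22, and in the interaction *CEBPB* ranged from 0.057 to 0.42, *CEBPD* from −0.16 to 0.28 and *CEBPZ* from 0.17 to 0.51. Without the 2 samples, *CEBPG* was at 0.0071 in RIS against growing, *DDIT3* at 0.58 in shHMGA1 against growing, and in the interaction *CEBPB* at −0.16, *CEBPD* at −0.33 and *CEBPZ* at −0.061. RLE normalisation moved the median of all genes by at most 0.03.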

Other observations

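*HMGA1* differed between replicates of the hairpin groups. In shHMGA1 cells replicates 5 and 6 had 58.1 and 54.4 CPM and the other 4 samples 98.7 to 143 CPM. In RIS+shHMGA1 cells replicates 5 and 6 had 60.0 and 75.1 CPM and the others 197 to 262 CPM. In the same 2 RIS+shHMGA1 replicates *CEBPB* had its highest values (118 and 194 CPM) and *DDIT3* its lowest (65.6 and 70.7 CPM). In shHMGA1 replicates 5 and 6 *CEBPD* had its lowest values (10.9 and 8.80 CPM). The same was so in growing replicates 5 and 6 (10.2 and 9.83 CPM), which had no hairpin and *HMGA1* at 698 and 746 CPM. In RIS+shHMGA1 replicates 5 and 6 *CEBPD* was not low (26.7 and 42.5 CPM). RIS replicates 5 and 6, also without the hairpin, lay at 16.8 and 22.2 on the first principal component. RIS replicates 1, 3 and 4 lay there at 56.0 to 62.1. These values were picked after they were seen, and no test was made.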
